A study of Mus musculus with 12 samples.

Results

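GABA-A receptors are chloride channels that open when they bind GABA, and 7 genes for their subunits are described here in the dorsal root ganglia (DRG) of mice with conditional loss of Nf2, with or without loss of focal adhesion kinase. The genes are Gabra2, Gabra3, Gabra5, Gabrb1, Gabrb2, Gabrg1 and Gabrg3. They were picked by name, with their levels in the 2 genotypes already known, from the 49315 genes of the count table, of which 18295 had enough reads to be tested, all 7 among them. A further 9 GABA-A subunit genes are described beside them. Because the choice followed the genotype difference, that difference is given for the 7 genes as a description and without a test.

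Bulk RNA-seq measured polyadenylated RNA of 12 mice, each a library of about 8 pooled ganglia taken at 10 months of age. The 6 Nf2 mice were Postn-Cre(+);Nf2 flox/flox, and the 6 DKO (double knockout) mice carried Fak1 flox/flox in addition (Fak1 is the gene Ptk2), with 3 mice labelled female and 3 labelled male in each genotype. All 12 were thus bred to lose Nf2 in the cells in which the periostin promoter drives Cre, the Schwann cells and their precursors, and no mouse with intact Nf2 was analysed here. The floxed cells are only part of a ganglion, so the whole-tissue level of a deleted gene was a weak check of the labels. The Nf2 gene stood at 128 ± 12.4 CPM (counts scaled to a library total of 1000000; mean ± SD, n = 6) in the Nf2 group and 118 ± 11.2 CPM in the DKO group. Ptk2 stood at 69.95 ± 3.60 CPM and 64.0 ± 10.4 CPM in the same order, a log2 difference of -0.15 (edgeR adjusted p = 0.529). The tissue matched its label, since the 19 measured genes of a sensory neuron list summed to between 14535 and 18238 CPM in the 12 libraries. Library totals ran from 21129191 to 41250329 counts. Mouse 702 of the Nf2 group, labelled male, had 496 CPM of Xist and 0.525 CPM of Ddx3y, whereas the 5 other mice labelled male had 0.364 to 6.175 and 76.0 to 86.3 CPM. The 6 mice labelled female had 428 to 637 CPM of Xist and 0.150 to 0.852 CPM of Ddx3y, so the library labelled male, mouse 702, went against its label. Results on sex are given with and without it.

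A GABA-A receptor is a ring of subunits, most often built from alpha, beta and gamma subunits around a chloride pore. The alpha and gamma subunits shape the site at which benzodiazepines act, and the alpha subunit largely sets how fast and how sensitively the channel responds. Mature sensory neurons keep a high internal chloride concentration, so GABA depolarizes them, a process known for its part in presynaptic inhibition at their central terminals.

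Subunit genes lie in clusters. Gabra3 lies on the X chromosome (GRCm38, 72432681 to 72656848, minus strand) between Gabre and Gabrq, all inside a span of 586604 bases. Gabrg1, Gabra2 and Gabrb1 share a cluster of 1397991 bases on chromosome 5 with Gabra4. Gabra5 and Gabrg3 lie together on chromosome 7, and Gabrb2 and Gabra6 on chromosome 11. The 250 bases upstream of 3 start sites are printed because the results below turn on Gabra3, on its neighbour Gabrq, and on Gabra2, the alpha subunit of the 7 that differed least in ratio. They come from RefSeq (GRCm38.p6), read 5′ to 3′ along each gene's strand, for Gabra3 chrX:72656920-72657169 (minus), for Gabrq chrX:72824928-72825177 (plus) and for Gabra2 chr5:71095850-71096099 (minus). Capitals mark matches on either strand to a motif, the TATA box being searched as TATAAA. The CCAAT box was searched under its own letters. The GC box was searched as GGGCGG. The cAMP response element was searched as TGACGTCA.
Gabra3: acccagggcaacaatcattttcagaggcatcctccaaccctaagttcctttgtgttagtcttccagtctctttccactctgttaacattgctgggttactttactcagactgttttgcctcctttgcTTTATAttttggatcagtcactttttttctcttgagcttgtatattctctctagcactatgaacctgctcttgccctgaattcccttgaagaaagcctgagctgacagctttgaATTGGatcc
Gabrq: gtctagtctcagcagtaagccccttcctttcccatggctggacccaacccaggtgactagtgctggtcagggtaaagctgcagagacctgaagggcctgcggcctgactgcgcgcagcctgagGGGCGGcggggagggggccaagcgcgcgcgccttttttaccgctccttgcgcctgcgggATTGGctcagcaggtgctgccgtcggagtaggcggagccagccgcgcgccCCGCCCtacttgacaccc
Gabra2: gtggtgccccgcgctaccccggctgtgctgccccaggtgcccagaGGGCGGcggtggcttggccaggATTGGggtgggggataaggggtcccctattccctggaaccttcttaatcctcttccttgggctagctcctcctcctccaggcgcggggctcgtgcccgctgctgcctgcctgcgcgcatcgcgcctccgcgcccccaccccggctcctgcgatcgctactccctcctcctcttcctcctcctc

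The Gabra3 window held no CpG and 42.4% G and C. The Gabrq window held 19 CpG at 67.2% and the Gabra2 window 18 CpG at 70%, whereas the median of the 32851 RefSeq windows was 6 CpG at 52.4%. All 7 subunits had a window, 11 in all with alternative starts. A TATA box and a CCAAT box matched upstream of Gabra3, and CCAAT and GC boxes matched upstream of both Gabrq and Gabra2. Of all windows, 12.4% held a TATA box, 33.9% a CCAAT box, 32.7% a GC box and 1.55% a cAMP response element, so the first 3 are common and their presence is only a description. No letters of the cAMP response element were found in the 3 windows.

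All 7 subunits had a higher mean level in DKO than in Nf2 ganglia, and they did so by very different amounts. The log2 fold change, from edgeR on scaled counts, was 1.32 ± 0.19 (SE) for Gabra3 and between 0.17 and 0.62 for the other 6, with a median of 0.48 over the 7. Over all 18295 genes tested the median was 0.00, the 5th percentile -0.41 and the 95th 0.50, and 51.0% of genes had a value above 0. Every DKO mouse was above every Nf2 mouse for 1 of the 7, Gabra3. Over all genes 0.902% were so separated, and nothing is read from this, since the 7 were picked with these levels known. In bulk tissue, more cells of one type and more RNA per cell cannot be told apart, which holds for every level below.

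**Figure D1:**
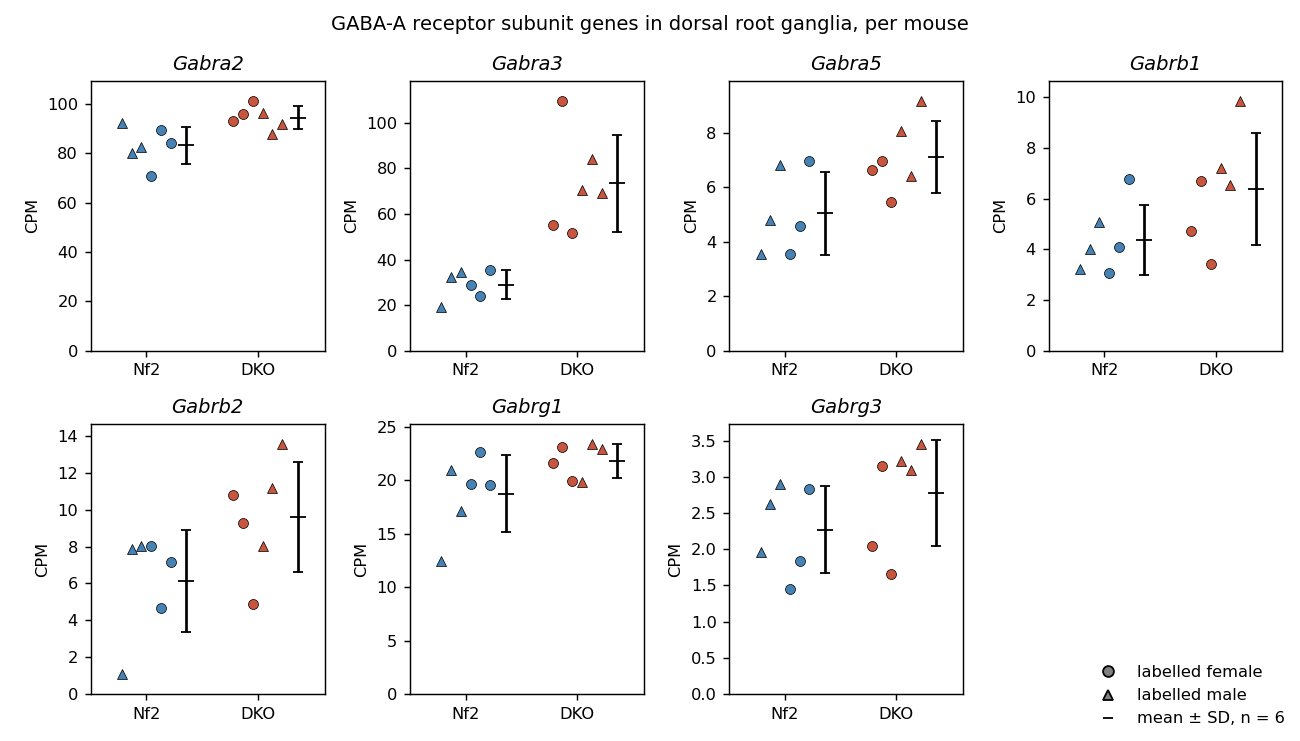
CPM of the 7 subunit genes (vertical axes, linear and from 0) in each of the 6 Nf2 and 6 DKO mice, with circles for mice labelled female, triangles for mice labelled male, and the mean ± SD at the right of each group. The groups separate for Gabra3, where DKO mice sit at 51.9 CPM or more and Nf2 mice at 35.6 CPM or less, and overlap for the other 6.

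Among the alpha subunits, Gabra3 encodes alpha3, which is prominent in monoaminergic brain stem neurons and in the spinal cord dorsal horn. In Nf2 mice its level was 19.1, 23.9, 28.8, 32.5, 34.4 and 35.6 CPM in mice 649, 1048, 918, 702, 884 and 1049. In DKO mice it was 51.9, 55.2, 69.1, 70.5, 84.1 and 109.6 CPM in mice 887, 885, 917, 914, 915 and 886. The lowest DKO mouse was thus above the highest Nf2 mouse, and the DKO mice were also the more spread out, with an SD of 21.2 CPM against 6.47 CPM. The mean was 29.0 CPM in Nf2 and 73.4 CPM in DKO ganglia, a 2.53-fold ratio. The log2 fold change was 1.17 without mouse 886, the highest, and between that and 1.39 when any single mouse was left out.

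Gabra2 encodes alpha2, an anxiolytic and analgesic target of benzodiazepines, and it had the most counts of the 7. Its CPM ran from 70.7 through a median of 83.3 to 92.0 without and from 87.8 through 94.6 to 101 with the loss of Fak1. Of the DKO mice, 4 were above the highest Nf2 mouse, and the difference was small (log2 fold change 0.17 ± 0.07).

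Gabra5 encodes alpha5, a subunit of largely extrasynaptic receptors. It stood at 3.535, 3.550, 4.58, 4.80, 6.80 and 6.95 CPM in Nf2 mice 649, 918, 1048, 702, 884 and 1049, and at 5.44, 6.398, 6.64, 6.94, 8.05 and 9.15 CPM in DKO mice 887, 915, 885, 886, 914 and 917. Nf2 mice 884 and 1049 lay inside the DKO range, and 2 DKO mice exceeded every Nf2 mouse. The log2 fold change was 0.48 ± 0.19. A stretch of 148 of its exonic bases is shared with Gm9962 on the opposite strand, whose reads cannot be told apart from those of Gabra5 without strand information.

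The beta subunits carry, at their interface with alpha, the GABA binding site, and bind many general anesthetics. Gabrb1 encodes beta1. The Nf2 group spanned 3.08 to 6.77 CPM (median 4.04) and the DKO group 3.41 to 9.85 CPM (median 6.60), so the ranges overlapped widely and 2 DKO mice were above every Nf2 mouse. The log2 fold change of 0.53 ± 0.24 fell to 0.37 without mouse 917, the highest of all. Of its exonic bases, 46 are shared with Gabra4 on the opposite strand.

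Gabrb2 encodes beta2, a subunit of many synaptic receptors of the brain. In Nf2 mice it stood at 1.11, 4.66, 7.14, 7.88, 8.03 and 8.05 CPM in mice 649, 1048, 1049, 702, 884 and 918, the first from 26 reads. In DKO mice it stood at 4.87, 8.05, 9.28, 10.8, 11.2 and 13.6 CPM in mice 887, 914, 886, 885, 915 and 917. Mouse 649 was far below the rest, and DKO mouse 887 lay below 4 Nf2 mice. The log2 fold change was 0.62 ± 0.36, and it was 0.41 without mouse 649.

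The gamma subunits anchor receptors at synapses and complete the benzodiazepine site. Gabrg1 encodes gamma1, common in glia and in the amygdala. The Nf2 group ran from 12.5 to 22.7 CPM (median 19.6) and the DKO group from 19.8 to 23.4 CPM (median 22.3). The log2 fold change of 0.20 ± 0.12 was 0.11 without mouse 649, the lowest. Gabrg3 encodes gamma3 and had the fewest reads of the 7 in total, 35 to 133 per library. It spanned 1.45 to 2.90 CPM over the Nf2 group and 1.66 to 3.45 CPM over the DKO group, with 4 DKO mice above the highest Nf2 mouse and 2 inside the Nf2 range. Its log2 fold change was 0.27 ± 0.22.

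Per exonic length the order of the 7 was led by 2 alpha subunits. As RPKM (CPM divided by the annotated exon length in kilobases), the mean over 12 mice was 13.1 for Gabra3, 11.6 for Gabra2, 2.58 for Gabrg1, 2.04 for Gabra5, 1.24 for Gabrb2, 0.389 for Gabrb1 and 0.211 for Gabrg3. Gabra3 was above Gabra2 in 0 of 6 Nf2 mice and in 5 of 6 DKO mice, so the first place was not the same in the 2 genotypes. Gabra2 was above Gabrg1, and Gabrb1 above Gabrg3, in all 12 mice, whereas Gabrg1 was above Gabra5 in 9 of 12. With the longest transcript in place of all exons as the length, Gabra2 came first (15.2 against 14.0 RPKM) and the other 5 kept their rank.

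Of the summed RPKM of the alpha subunits Gabra2, Gabra3, Gabra4 and Gabra5, Gabra3 took a larger share in DKO ganglia and Gabra2 a smaller one. The Gabra3 share was 36.4% ± 5.97 (SD, n = 6) in Nf2 mice, with a range of 26.7% to 40.8%, and 54.6% ± 6.97 in DKO mice, with a range of 46.4% to 64.8%. The Gabra2 share was 54.3% ± 7.17 in Nf2 and 37.4% ± 6.34 in DKO mice. Gabra5 held 8.25% ± 1.69 and 7.18% ± 1.45, and Gabra4 held the small rest. The 4 genes summed to 20.2 ± 1.97 RPKM in Nf2 and 33.7 ± 5.36 RPKM in DKO ganglia, so the smaller share of Gabra2 stood beside a slightly higher level. The shares of Gabra3 and of Gabra2 did not overlap between the genotypes, whereas those of Gabra5 and Gabra4 did. Shares within a mouse add up to a fixed total, so these 2 separations are not independent. They also rest on levels known when the 7 were picked and on the exon length used, and nothing is read from them.

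**Figure D2:**
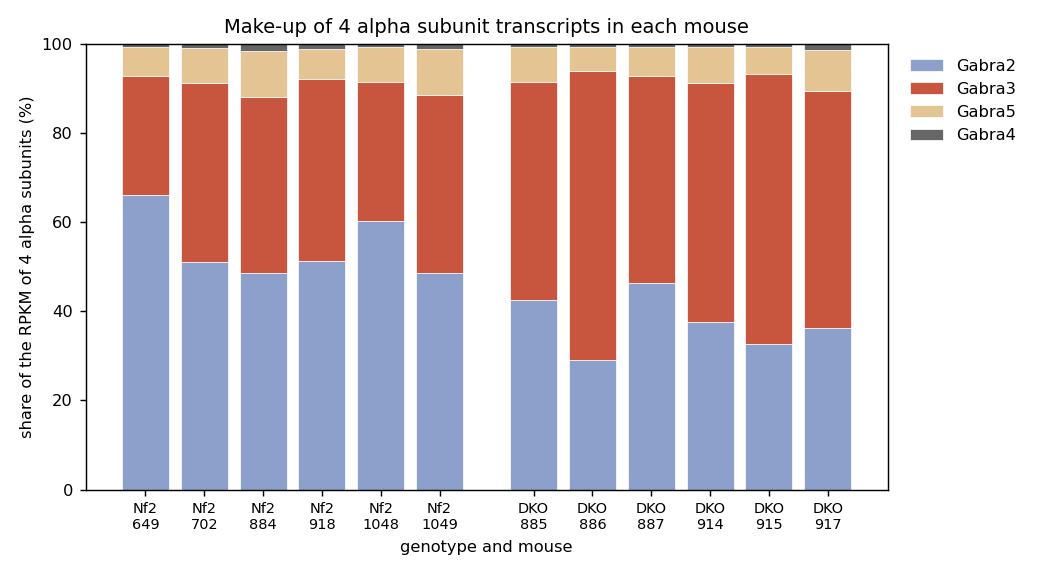
Share of the summed RPKM of Gabra2, Gabra3, Gabra4 and Gabra5 (percent, vertical axis) in each Nf2 and DKO mouse (horizontal axis). The Gabra3 band covers 26.7% to 40.8% in the Nf2 group and 46.4% to 64.8% in the DKO group.

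The 9 further subunits are listed for belonging to the same receptors, with earlier results known, and their genotype difference was tested. Of these, 4 had enough reads, and 3 of the 4 had a higher mean in DKO. At an adjusted p of 0.05, the threshold used throughout, 1 of the 4 passed, where 0.940% of all genes passed in either direction and 0.372% with a higher level in DKO. Gabrq, which encodes theta, a subunit often found with alpha3, had the largest log2 fold change of the 11 subunits tested at 2.56 ± 0.35 (edgeR adjusted p = 0.00575). Gabrq reached the read filter only through the DKO mice, where it was high. Nothing is therefore read from its p, from the separation of its groups, or from the 1 of 4 that passed, which is Gabrq. It was scarce, at 0.183, 0.256, 0.263, 0.307, 0.338 and 0.374 CPM in the Nf2 group and 0.663, 0.987, 1.67, 1.71, 2.68 and 2.77 CPM in the DKO group, from 47 and 280 reads in all, and the groups did not overlap. The call was lost in the mice labelled female alone (adjusted p = 0.294), the mice labelled male alone (0.109), mice 884 to 918 (0.153) and with the level of a meningeal gene list as a covariate (0.0652), always with the same direction. With a filter of at least 1 CPM in 6 mice, Gabrq was not tested. Gabre, which encodes epsilon and lies on the other side of Gabra3, also had every DKO mouse (2.16 to 4.13 CPM) above every Nf2 mouse (0.750 to 1.87 CPM), but its log2 fold change of 0.73 ± 0.23 did not pass (edgeR adjusted p = 0.142; DESeq2 adjusted p = 0.0487). The groups thus did not overlap for Gabre, where 0.902% of all genes had every DKO mouse above every Nf2 mouse. Nor did they for Gabrq, which reached the read filter only through the DKO mice, or for Gabra3, which was picked with its levels known.

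**Figure D3:**
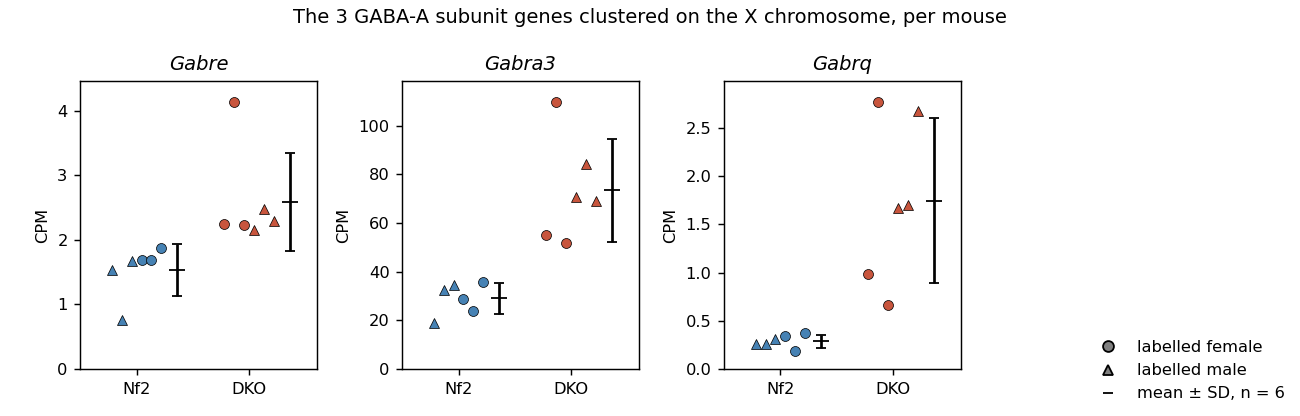
CPM of the 3 X-linked subunit genes in chromosomal order (Gabre, Gabra3, Gabrq; vertical axes from 0) in 6 Nf2 and 6 DKO mice, with circles for mice labelled female, triangles for mice labelled male, and mean ± SD. In each panel the lowest DKO mouse lies above the highest Nf2 mouse, and mouse 886 is the highest.

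The genes around the X-linked cluster gave no other call. For this and the lists that follow, 14.9% of all genes had an unadjusted p under 0.05 in edgeR, and 4.54% passed the adjusted threshold by DESeq2 and 2.85% by voom. Within 500 kb of it, 14 other genes were tested, 0 passed edgeR's adjusted threshold, 1 had an unadjusted p under 0.05, and 9 had a higher mean in DKO, with 0 passing by DESeq2 or voom either. Zfp185, a cytoskeletal regulator expressed at 2.10 CPM in Nf2 and 3.35 CPM in DKO mice, had the widest gap of those above 1 CPM (log2 fold change 0.65 ± 0.29, adjusted p = 0.308 by edgeR). Around the chromosome 5 cluster 1 of 6 other genes had a higher mean in DKO. There 0 passed by edgeR, DESeq2 or voom, and 1 had an unadjusted p under 0.05 in edgeR, Commd8.

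The other 2 subunits tested gave no call and had few reads, 19 to 64 per library for Gabra4 and 5 to 16 for Gabrd. Gabra4, whose protein forms extrasynaptic receptors with delta, had a log2 fold change of 0.30 ± 0.28, and Gabrd, which encodes delta, one of -0.16 ± 0.26, and neither passed. Gabrp, Gabrr1, Gabrr2 and Gabrr3 had between 0 and 36 reads per library and were not tested. Gabra6, the cerebellar granule cell alpha subunit, had 0 reads in all 12 libraries, which allows up to 0.142 CPM in the smallest of them (3 counts, for counting error only).

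**Figure D4:**
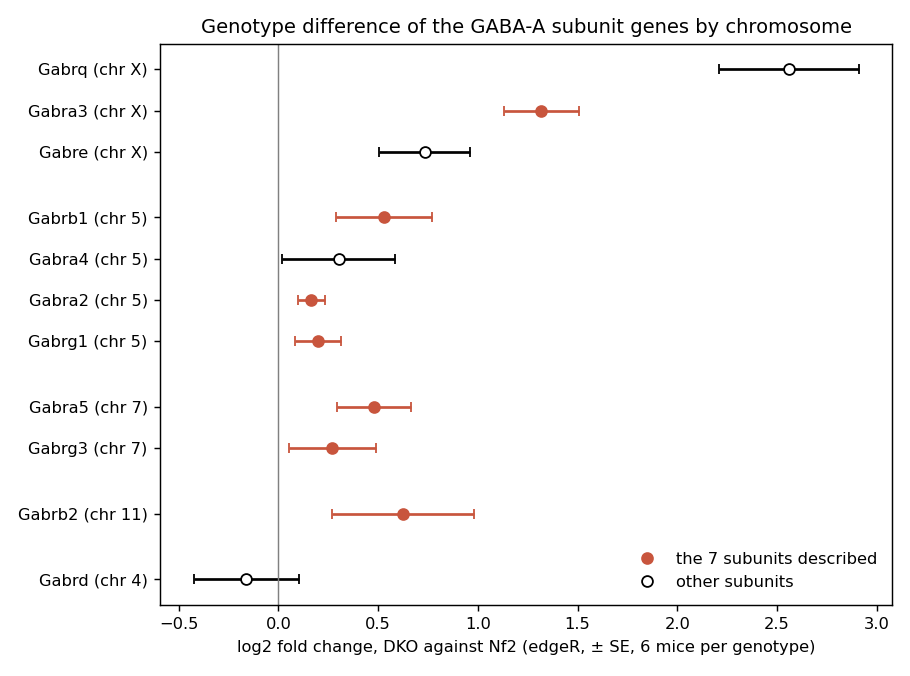
Log2 fold change of DKO against Nf2 (horizontal axis, edgeR, bars ± SE, 6 mice per genotype) for 11 tested subunit genes, grouped by chromosome, with the 7 subunits described as filled points. Gabrq (2.56) and Gabra3 (1.32) stand furthest to the right, and Gabrd (-0.16) is the only one left of 0.

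Sex made no detectable difference to any of the 7. In a fit with genotype as a covariate, 0 of the 7 passed for male against female, where 0.0164% of all genes did, and 0 had an unadjusted p under 0.05, where 2.91% of all genes did (edgeR). Gabrg3 came nearest, with a log2 difference of 0.40 ± 0.20 (edgeR unadjusted p = 0.0638, adjusted p = 1.00). In Nf2 ganglia it was 2.04 ± 0.717 CPM in mice labelled female and 2.496 ± 0.486 CPM in mice labelled male (SD, n = 3 each), and in DKO mice 2.29 ± 0.775 and 3.26 ± 0.179 CPM. The X-linked Gabra3 differed by 0.00 ± 0.19 on the log2 scale. Without mouse 702 the log2 differences of the 7 lay between -0.19 and 0.40 and 0 passed at either threshold. DESeq2 gave 0 at either threshold, and limma voom 0 adjusted and 1 unadjusted, Gabrg3.

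The genotype difference was not shown to depend on labelled sex. None of the 7 passed the test of the interaction (0 of 7 adjusted and 0 unadjusted in edgeR, against 0.0109% and 4.78% of all genes; adjusted p from 0.920 to 0.990). The most uneven was Gabrb1. Its mean went from 4.64 ± 1.91 CPM in Nf2 to 4.93 ± 1.65 CPM in DKO mice labelled female, and from 4.11 ± 0.931 to 7.85 ± 1.76 CPM in mice labelled male (SD, n = 3 each), an interaction of 0.78 ± 0.44 on the log2 scale. Without mouse 702, DESeq2 and voom each gave 0 adjusted calls among the 7, with 1 unadjusted in the first of these fits, Gabrg1.

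Within a genotype the 7 subunits did not vary as 1 block. Over the 12 mice, the deviations of log2 levels from the genotype mean correlated with a median Pearson r of 0.46 over the 21 pairs, from -0.79 for Gabra2 with Gabrb2 to 0.88 for Gabrb1 with Gabrg3, and 15 pairs were above 0. The points share their libraries, and no test was made. Gabra5, Gabrb1 and Gabrg3 formed the tightest trio, with r of 0.87, 0.79 and 0.88, whereas Gabra2 was negative with each of the other 6. Mouse 649 carried much of the shared variation, since without it the median r was 0.18 with 13 pairs above 0. The trio kept r of 0.87, 0.82 and 0.89 without that mouse, and Gabra2 with Gabrb2 kept -0.76, but Gabrb2 with Gabrg1 went from 0.75 to 0.08.

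The trio varied with lists of spinal cord neuron and astrocyte genes. Which cells of these samples expressed the listed genes was not tested. Acsbg1 of the astrocyte list was at 158 CPM or more in every Nf2 mouse and 90.1 CPM or more in every DKO mouse. A list of spinal cord neuron genes, of which 5 had enough reads, correlated at 0.82 with Gabra5, 0.89 with Gabrb1 and 0.77 with Gabrg3, and an astrocyte list of 8 genes at 0.76, 0.92 and 0.85. The spinal cord neuron list summed to 4.98 to 25.3 CPM in the Nf2 group and 3.87 to 40.4 CPM in the DKO group, was highest in mouse 917, and no marker of it was at 0 in every mouse. With its level as a covariate, chosen after seeing the data, the log2 fold change was 0.40 for Gabra5, 0.35 for Gabrb1 and 0.14 for Gabrg3. Their part in the genotype difference was not tested further.

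Gabra2 followed the sensory neuron list instead, with r of 0.88, and was negative with the other 12 cell type lists. Gabra3 and Gabrb2 went the opposite way, at -0.77 and -0.79 with sensory neurons. The sensory neuron list itself was level between genotypes, with 8 of 19 genes higher in DKO, a median log2 fold change of -0.01 and 0 genes called by edgeR, DESeq2 or voom, or at an unadjusted p under 0.05. With its level as a covariate the log2 fold change of Gabra3 was 1.28 and that of Gabra2 0.18.

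Gabra3, Gabrb2 and Gabrg1 varied with a list of meningeal and root sheath genes, with r of 0.73, 0.69 and 0.70, which were 0.61, 0.44 and 0.48 without mouse 649. Other lists came as near, since Gabra3 had r of 0.70 with perineurial cells and 0.69 with astrocytes, and Gabrb2 had 0.80 with fibroblasts, or 0.57, 0.69 and 0.68 without that mouse. That list was also higher in DKO ganglia, with 11 of 11 genes above 0 and a median log2 fold change of 1.04. By edgeR 0 of them passed and 9 had an unadjusted p under 0.05, while DESeq2 called 5 and voom 3. It summed to 48.1 to 269 CPM in the Nf2 group and 130 to 1504 CPM in the DKO group, and no marker was at 0 in every mouse. Mouse 649 had the lowest level and mouse 886 the highest, as they did for Gabra3. The level of this list was used as a covariate, chosen after seeing the data. The log2 fold change was then 0.91 ± 0.16 for Gabra3 and 1.99 ± 0.40 for Gabrq. It was -0.052 for Gabrb2, -0.0033 for Gabrg1 and 0.24 for Gabra2. The list's part in the differences was not tested beyond this fit.

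**Figure D5:**
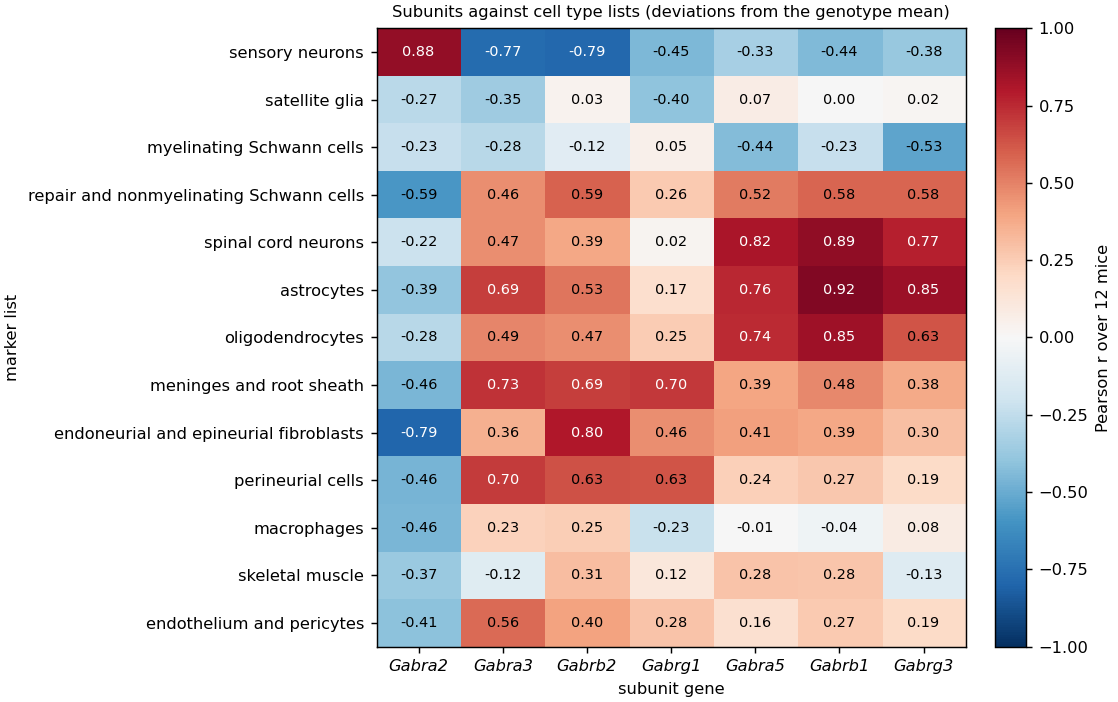
Pearson r over 12 mice (color and printed value) between each subunit gene (horizontal axis) and the mean log2 level of 13 cell type marker lists (vertical axis), both as deviations from the genotype mean. Gabra2 is positive with sensory neurons alone (0.88), and Gabra5, Gabrb1 and Gabrg3 are highest with spinal cord neurons, astrocytes and oligodendrocytes.

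The genes most like each subunit in the same measure, among 14194 genes, were Cutc and Ackr3 for Gabra3 (r 0.96 each), Lrfn1 and Tmem151a for Gabra2 (0.96 each), and Mlc1 and Fam163b for Gabra5 (0.94 each). For Gabrb1 they were Sv2a (0.96) and Rhd (0.95), for Gabrb2 Sacm1l and Syt14 (0.99 each), for Gabrg1 AI593442 and Cbfb (0.91 each), and for Gabrg3 Kcnj9 (0.94) and Tnk2 (0.91). The values for Gabrb2 rest in part on mouse 649, which was low.

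The genes that place and clear GABA around these receptors showed few calls. Of 20 genes for assembly and anchoring of GABA-A receptors, 11 were higher in DKO and the median log2 fold change was 0.02. None passed (0 by edgeR, DESeq2 and voom, with 4 of 20 at an unadjusted p under 0.05 in edgeR, near the share of all genes). The largest difference was that of Shisa7, an auxiliary subunit that speeds receptor kinetics, at 0.46 ± 0.16 (edgeR adjusted p = 0.178), followed by Slitrk3, a postsynaptic adhesion protein of inhibitory synapses, at 0.30 ± 0.10 (0.167). Of 12 genes for GABA synthesis, transport and breakdown, 11 were higher and the median was 0.62, with 0 passing by edgeR or voom, 3 by DESeq2, and 4 at an unadjusted p under 0.05 in edgeR. The largest values were those of 3 GABA transporters, Slc6a12 (1.43 ± 0.42), Slc6a13 (1.11 ± 0.36) and Slc6a11 (1.02 ± 0.86), with edgeR adjusted p of 0.126, 0.163 and 0.638. This list followed Gabrb1, with r of 0.95 over the 12 mice. Of 6 genes for GABA-B receptors, the G protein-coupled receptors for GABA, and their KCTD partners 3 were higher, with a median of -0.03 and 0 past the threshold in edgeR, 1 in DESeq2 (Kctd12, -0.39 ± 0.11 in edgeR) and 1 at an unadjusted p under 0.05. All 3 tested genes for glycine receptors, the other chloride channels of inhibitory synapses, were higher, with a median of 0.61 and 0 past any threshold by edgeR, DESeq2 or voom.

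The chloride gradient sets the direction of the current through GABA-A receptors. Of 16 genes on that list, 12 were higher in DKO and the median log2 fold change was 0.04. In edgeR 0 passed and 3 had an unadjusted p under 0.05, while DESeq2 and voom each called 2, Wnk2 and Clcn2. Slc12a5, the chloride exporter of central neurons, stood at 8.88 ± 10.2 CPM in Nf2 and 16.7 ± 16.7 CPM in DKO mice (log2 fold change 0.89 ± 0.79). The far more abundant Slc12a2 of the same list was level, at 283 ± 13.1 and 281 ± 15.3 CPM (-0.02 ± 0.06). Wnk2, a kinase that regulates chloride cotransporters, had 0.37 ± 0.09 (edgeR adjusted p = 0.0841), and Clcn2, a chloride channel, 0.34 ± 0.08 (0.0733).

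Among 9 genes of neurosteroid and endozepine ligands, which tune GABA-A receptors, 4 were higher, 5 lower, and 1 passed. Tspo, the mitochondrial translocator protein linked to neurosteroid synthesis and abundant in macrophages, fell from 49.3 ± 5.61 to 34.0 ± 4.59 CPM (log2 fold change -0.55 ± 0.09, adjusted p = 0.0140 by edgeR), where 0.568% of all genes passed with a lower level. A macrophage list had 12 of 14 genes lower as well, with a median of -0.35 and C1qb past the threshold (-0.71 ± 0.12, edgeR adjusted p = 0.0138). Of the 14, 9 had an unadjusted p under 0.05 in edgeR, while DESeq2 called 5 and voom 2. The shares of all genes were 14.9%, 4.54% and 2.85% in the same order. That list summed to 302 to 451 CPM in Nf2 and 281 to 407 CPM in DKO mice. No marker was at 0 in every mouse, and the list's part in the level of Tspo was not tested. The symbol Itgam stands in more than 1 row of the counts, and the sum used a row of 0 to 7 reads per library. Its test (edgeR log2 fold change -0.43 ± 0.16), counted above among the lower genes, used another row.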

How the data were processed

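The 7 subunits and all gene lists were chosen with earlier results of these data known. RNA of about 8 ganglia per mouse was sequenced after poly(A) selection. The authors deposited 1 table of raw counts per gene. Per the submitters' processing notes it was made with Trimmomatic 0.36, STAR 2.5.2b and featureCounts (Subread 1.5.2) on GRCm38. The strand setting, the treatment of multiply mapped reads and the annotation release are not given in the sources used here. All 12 sample columns were used. A further 174 rows carried no symbol, and 13672 genes had no read.

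Groups followed genotype labels. Genes passing filterByExpr were tested by edgeR 4.0.16 quasi-likelihood F tests on the deposited counts with TMM factors (0.977 to 1.02) and Benjamini-Hochberg adjustment over all 18295 genes, for genotype, for labelled sex with genotype as a covariate, and for their interaction. The SE is the log2 fold change divided by the square root of F. DESeq2 1.42.0 and limma 3.58.1 (voom with sample weights), in R 4.3.3, were alternatives, and each tool was tested on simulated data. CPM are counts scaled to a library total of 1000000, and RPKM divide these by the union of GENCODE M21 exons. Correlations used log2(TMM-scaled CPM + 0.5). Libraries were not duplicates, as chi-square per degree of freedom was 9.73 to 81.2 over 66 pairs. Each library is 1 mouse. The floor given for a gene without reads covers counting error only, whereas the SD and SE include the spread between mice.

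Named genes were the subunits (some of the family are not reported here), every gene of a list past an adjusted p of 0.05 or else up to 3 of the largest log2 fold change with a mean of at least 1 CPM, and the 2 genes most correlated with each subunit. The lists besides the 2 of subunits were 19 in number, 13 of them for cell types.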

Additional observations from a re-analysis of the deposited data

Results flagged for a closer look

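In each genotype of 6 mice, the highest and lowest values of the subunits, the marker lists, the library total and the mitochondrial share were set against the others, and 10 of 64 groups held a mouse whose gap to its nearest neighbor, as a part of the range, was above Dixon's 95% critical value. Chance gives about 3.2. Mouse 649 of the Nf2 group stood apart most often. Its mitochondrial share of 4.45% was the highest of that group (nearest 3.15%) but was not among the 10. Its log2 level (TMM-scaled CPM + 0.5) was 0.71 for Gabrb2 where the nearest mouse had 2.35. The same mouse was lowest for the meninges and root sheath list, at a mean log2 level of 1.32 (nearest 2.55), and for the perineurial cell list, at 3.81 (nearest 4.36), and highest for the neurosteroid and endozepine list, at 3.62 (nearest 3.31).

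Gabre had a lone mouse in each genotype, mouse 702 at 0.34 in the Nf2 group (nearest 1.05) and mouse 886 at 2.21 in the DKO group (nearest 1.55). Mouse 886 was also lowest for satellite glia, at 5.52 (nearest 5.89), and mouse 1048 lowest in the Nf2 group for macrophages, at 3.89 (nearest 4.27). The mitochondrial share of mouse 887 was 5.60% (nearest DKO mouse 2.52%), and this mouse had the lowest Gabra3, Gabra5, Gabrb1, Gabrb2 and Gabrg3 levels of the DKO group. The library of mouse 914 held 41250329 counts (nearest DKO mouse 26353044).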

How the results depend on the processing

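The 7 subunits kept a higher level in DKO mice in every alternative except 1, the meningeal list as a covariate, under which Gabrb2 (-0.052) and Gabrg1 (-0.0033) turned, and Gabra3 fell to 0.91. Gabrb1 was 0.09 in mice labelled female alone. The count of genes called for genotype, 172 in all, was 831 by DESeq2, 521 by voom, 57 in mice labelled female alone, 2 in mice labelled male alone, 95 in mice 884 to 918, the range of numbers that holds every DKO mouse, and 507, 86 and 48 with sensory neuron, skeletal muscle and meningeal levels as covariates, these last 3 chosen after seeing the data. Leaving out 1 mouse gave 81 (mouse 918) to 217, with 87 to 114 without mouse 702, 884, 885, 914, 917 or 1049. Calls for sex, 3, were 5 by DESeq2 and without a count filter, 0 by voom and 0 at 1 CPM or more in 6 mice, and 0 to 10 without 1 mouse, the 10 without mouse 702 and the 0 without any other. Calls for the interaction, 2, were 20 by DESeq2, 6 without a filter and 2 to 6 without 1 mouse, the 6 without mouse 914. The causes were not tested, and subsets hold fewer mice. Ranks by length held for 5 of 7 subunits with the longest transcript. No paired analysis was made, because the labels give a number for each mouse but no litter or pair. Low counts limit Gabrq, Gabre and Gabrg3, where few reads separate mice.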

Other observations

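The remaining cell type lists gave few calls for genotype by edgeR. Skeletal muscle, the tissue that borders dissected ganglia, was lower in DKO for 11 of 11 genes with a median log2 fold change of -2.09 and 0 called by edgeR, DESeq2 or voom (9 at an unadjusted p under 0.05 in edgeR), and its summed level ran from 52.3 to 1011 CPM in Nf2 and from 62.2 to 355 CPM in DKO mice. Pvalb, 1 of the 11, stood at 38.8 to 80.9 CPM in Nf2 and 41.2 to 60.8 CPM in DKO mice. It thus made up much of the lowest sums, and its own log2 fold change was -0.29 ± 0.19. The r of the list with the 7 subunits lay between -0.37 and 0.31. With the list as a covariate Gabra3 had a log2 fold change of 1.25. Perineurial cells had 6 of 6 genes higher (median 0.30), endothelium and pericytes 7 of 9 (0.24), fibroblasts 8 of 10 (0.09) and oligodendrocytes 6 of 7 (0.55). By edgeR 0 were called in each of these 4 and 2, 2, 2 and 1 had an unadjusted p under 0.05, while DESeq2 called 1, 2, 0 and 1 and voom 0, 0, 0 and 1.

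Glial lists were mixed. Satellite glia had 5 of 10 genes higher (median -0.15), myelinating Schwann cells 7 of 10 (0.06), and repair and nonmyelinating Schwann cells 4 of 11 (-0.08). By edgeR 0 were called in these 3 and 3, 2 and 3 had an unadjusted p under 0.05, while DESeq2 called 1, 1 and 3 and voom 1, 0 and 2. Gfap, an intermediate filament of glia, went from 41.8 ± 19.3 to 98.7 ± 25.2 CPM (log2 fold change 1.22 ± 0.29, edgeR adjusted p = 0.0700). Astrocyte genes had 6 of 8 higher (0.26), while Acsbg1, an acyl-CoA synthetase, fell from 200 ± 32.7 to 126 ± 18.5 CPM (-0.69 ± 0.13, edgeR adjusted p = 0.0223). Spinal cord neuron genes had 3 of 5 higher (0.66), with 0 called by edgeR, DESeq2 or voom and 0 at an unadjusted p under 0.05.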
